A study of Mus musculus with 2 samples.

Results

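Activated microglia of the glaucomatous mouse retina, defined by high summed transcripts of Ccl2, Hmox1, Hcar2 and Socs3, were described cell by cell in 2 single-cell RNA libraries. A cell counted as a microglial cell when P2ry12, Tmem119, Gpr34, Olfml3, Sparc and Sall1 together gave at least 3 unique molecular identifiers (UMIs, each 1 captured transcript molecule) and at least 15 per 10000 of its UMIs. It counted as activated when Ccl2, Hmox1, Hcar2 and Socs3 together reached 40 per 10000 UMIs, a sum called the activation score here, and when the interferon genes Ifit1, Ifit2, Ifit3, Ifit3b, Isg15, Rsad2 and Oasl1 together stayed under 4 UMIs. Of 4385 cells, 2339 were microglia and 462 of these were activated, 431 in the Igfbpl1 library and 31 in the PBS library. Microglia under both limits, 1018 in the Igfbpl1 library and 708 in the PBS library, are called quiet. The rule used the measured levels of its own genes, so those levels describe the cells and test nothing.

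The Igfbpl1 library came from 10 B6 mice with microbead-induced glaucoma treated with Igfbpl1, and the PBS library from 10 B6 mice with the same glaucoma given PBS. All mice were 8 to 10 months old, and no library of mice without glaucoma was compared. Mice were perfused with saline, retinas were digested for 1 hour at 37 °C with collagenase/dispase, papain and DNase, and CD45-positive cells were sorted before 10x 3' library preparation. Each group is 1 pooled library, so treatment and library cannot be told apart and no test between groups is possible. All intervals below are 95% intervals that cover counting error alone. The sexes of the mice and the route and dose of Igfbpl1 are not given in the sources used here.

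Microglia are the resident macrophages of the retina. In the quiet state they express P2ry12, a receptor for nucleotides, and Cx3cr1, the receptor for the neuronal chemokine fractalkine. Ccl2 encodes a chemokine that attracts monocytes through the receptor Ccr2. Hmox1 encodes heme oxygenase, which degrades heme and is induced by oxidative stress. Hcar2 encodes a G protein-coupled receptor for beta-hydroxybutyrate and niacin. Socs3 encodes a feedback inhibitor of cytokine signalling through JAK and STAT3. Igfbpl1 is a secreted protein related to the insulin-like growth factor binding proteins.

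The 3330 cells of the Igfbpl1 library gave 9463631 UMIs, a median of 2355.5 per cell, and the 1055 cells of the PBS library gave 3795008, a median of 3433. The libraries shared 0 cell barcodes. Activated cells had a median of 2108 UMIs in the Igfbpl1 library and 3310 in the PBS library. Quiet cells had a median of 2033.5 UMIs in the Igfbpl1 library and 3547.5 in the PBS library, so activated and quiet cells of 1 library were of similar depth. Levels below are CPM, counts per 1000000 UMIs of the summed cells.

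The label was checked against markers. The 12 microglia markers include the gate genes that admitted the cells, so their detection in both libraries is fixed in part by the rule. Their summed level was 14927 CPM in activated and 15459 CPM in quiet cells of the Igfbpl1 library. It was 20948 CPM in activated and 21304 CPM in quiet cells of the PBS library. Of 10 border macrophage markers, 6 were at 0 in activated cells of the Igfbpl1 library and 7 in those of the PBS library, Lyve1 and Cd163 among them in both. The list summed to 34.1 CPM in activated cells of the Igfbpl1 library and to 39.5 CPM in those of the PBS library. Monocyte markers summed to 131 CPM in activated and 251 CPM in quiet cells of the Igfbpl1 library, and to 9.89 CPM in activated and 20.6 CPM in quiet cells of the PBS library. T cell markers summed to 22.1 CPM in activated cells of the Igfbpl1 library and to 0 in those of the PBS library, and natural killer cell markers to 30.1 and 0 CPM in the same order. The 8 neutrophil markers summed to 211 CPM in activated cells of the Igfbpl1 library and to 277 CPM in those of the PBS library, with 6 and 7 of them at 0 in the same order, S100a8, S100a9 and Ly6g among them in both. The Muller glia and astrocyte list summed to 10724 CPM in activated cells of the Igfbpl1 library, of which Apoe, also a microglial gene, gave 10355 CPM, and to 6218 CPM in those of the PBS library, of which Apoe gave 5655 CPM. Retinal neuron markers summed to 372 CPM in activated cells of the Igfbpl1 library and to 435 CPM in those of the PBS library. Called doublets were 3 of 431 activated cells (0.696%) in the Igfbpl1 library and 0 of 31 in the PBS library.

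Activated cells made up 431 of 1570 microglia in the Igfbpl1 library, 27.5% (25.3 to 29.7%, Clopper-Pearson), and 31 of 769 in the PBS library, 4.03% (2.76 to 5.67%). The difference came with a shift of the whole score distribution. Among microglia under the interferon limit the median score was 23.1 per 10000 UMIs in the Igfbpl1 library and 5.73 in the PBS library. No UMI of the rule genes was found in 167 of these cells in the Igfbpl1 library (11.5%) and in 191 in the PBS library (25.8%). Scores of 100 or more occurred in 96 cells of the Igfbpl1 library and 0 of the PBS library. The scores ran on through the threshold without a gap. Between 30 and 40 per 10000 lay 141 cells of the Igfbpl1 library and 26 of the PBS library, and between 40 and 50 lay 114 and 11 cells in the same order. The members nearest the threshold scored 40.1 and 40.8 in the Igfbpl1 library and 40.5 and 43.9 in the PBS library. The nearest cells outside it scored 39.9 and 39.8 in the Igfbpl1 library and 38.9 and 37.9 in the PBS library. The class is therefore a range of the measured score. Members held a median of 15 rule UMIs in the Igfbpl1 library and 18 in the PBS library, so counting error blurs the score. Whether the members form a separate type of cell was not tested.

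**Figure D1:**
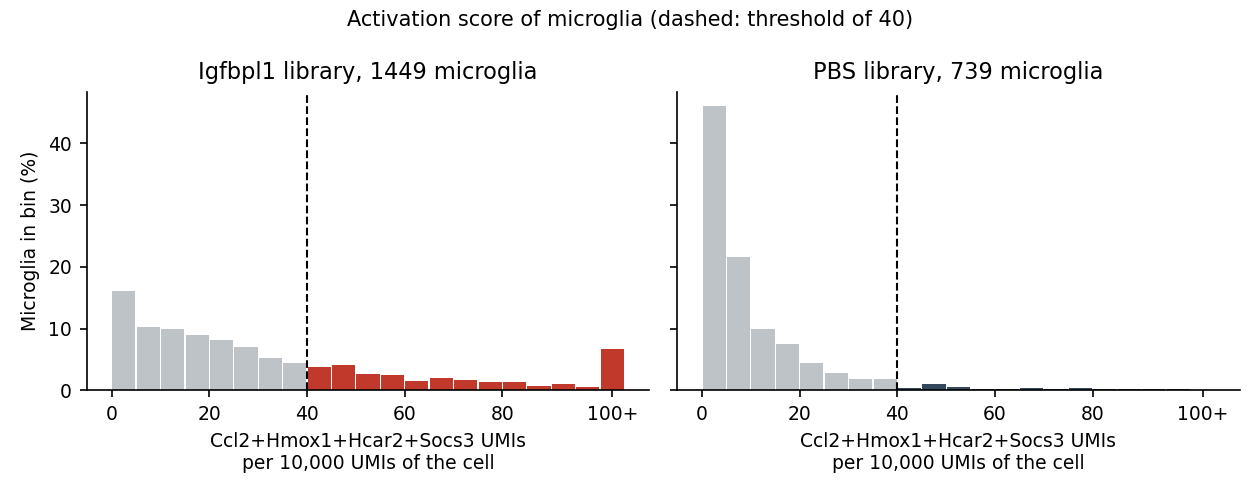
Share of microglia (y axis, percent of the microglia under the interferon limit) by activation score (x axis, UMIs of Ccl2, Hmox1, Hcar2 and Socs3 per 10000 UMIs of the cell, the last bar holding scores of 100 and over), for the Igfbpl1 library at left and the PBS library at right. Coloured bars right of the dashed threshold of 40 are the activated cells, 431 in the Igfbpl1 library and 31 in the PBS library.

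Free RNA from broken cells can give UMIs in cells that do not express a gene, so the score was also read outside the microglia. In B cells the score reached 40 in 1 of 65 cells of the Igfbpl1 library (1.54%, 0.0389 to 8.28%) and in 0 of 79 cells of the PBS library, which allows a share of up to 3.80%. The rule genes summed to 700.2 CPM in B cells of the Igfbpl1 library and to 37.2 CPM in those of the PBS library. In retinal neurons the score reached 40 in 0 of 146 cells of the Igfbpl1 library, which allows up to 2.05%, and in 0 of 51 cells of the PBS library, which allows up to 5.88%. Their rule genes summed to 59.1 CPM in the Igfbpl1 library and to 19.8 CPM in the PBS library.

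The share was also given for cells split by Xist, expressed from the inactive X chromosome, and by 4 Y-linked genes. In the Igfbpl1 library 151 of 550 Xist-only microglia (27.5%) and 119 of 429 Y-only microglia (27.7%) were activated. In the PBS library 1 of 188 Xist-only microglia (0.532%, 0.0135 to 2.93%) and 17 of 363 Y-only microglia (4.68%, 2.75 to 7.39%) were activated. Of microglia with neither or both, 161 of 591 were activated in the Igfbpl1 library (27.2%) and 13 of 218 in the PBS library (5.96%). The Igfbpl1 library had the higher share in each of the 3 sets. Interferon-responsive microglia stand outside the class by the rule, yet 46 of 121 of them in the Igfbpl1 library (38.0%) and 0 of 30 in the PBS library scored 40 or more. A count of 0 of 30 allows up to 10.0%.

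Ccl2, the first of the rule genes (GRCm38/mm10 chr11:82035571-82037453, plus strand), carried most of the score. It had 4439.8 CPM (4310 to 4573) in activated and 428 CPM in quiet cells of the Igfbpl1 library, and 4646 CPM (4236 to 5086) in activated and 248 CPM in quiet cells of the PBS library. The activated cells of both libraries thus held Ccl2 at levels whose intervals overlap. Ccl2 gave 55.4% of the members' rule UMIs in the Igfbpl1 library and 75.4% in the PBS library. The clone-named gene Gm17268 lies across Ccl2 on the minus strand (chr11:82028224-82038562). Whether counting used strand is not stated, so reads of the pair cannot be told apart. Of 99 activated cells of the Igfbpl1 library with Gm17268 UMIs, 97 also had Ccl2 UMIs, and in the PBS library all 15 did. Ccl2 UMIs were found in 348 of all 431 activated cells of the Igfbpl1 library and in 30 of 31 of the PBS library. The overlap in activated cells is thus fixed in part by the rule. Of 69 quiet cells of the Igfbpl1 library with Gm17268 UMIs, 51 had Ccl2 UMIs, beside 348 of all 1018 quiet cells. In quiet cells of the PBS library 51 of 60 did, beside 184 of all 708.

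Hmox1 (chr8:75093621-75100589, plus strand) differed more between the libraries. It had 1908 CPM (1823 to 1996) in activated and 544 CPM in quiet cells of the Igfbpl1 library, and 761 CPM (601 to 951) in activated and 248 CPM in quiet cells of the PBS library. It was seen in 79.1% of activated cells of the Igfbpl1 library and in 45.2% of those of the PBS library. After every cell was thinned to 1000 UMIs these shares were 66.4% in the Igfbpl1 library and 29.0% in the PBS library, against 9.23% and 0 of B cells in the same order.

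Socs3 (chr11:117966079-117970047, minus strand) had 1059 CPM in activated and 437 CPM in quiet cells of the Igfbpl1 library, and 405 CPM in activated and 229 CPM in quiet cells of the PBS library. Hcar2 (chr5:123863570-123865499, minus strand) was the lowest of the 4 rule genes. It had 599.9 CPM in activated and 197 CPM in quiet cells of the Igfbpl1 library, and 346 CPM in activated and 111 CPM in quiet cells of the PBS library. In quiet cells all 4 rule genes were higher in the Igfbpl1 library, and in activated cells Hmox1, Socs3 and Hcar2 were, levels that the rule used in dividing the cells.

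**Figure D2:**
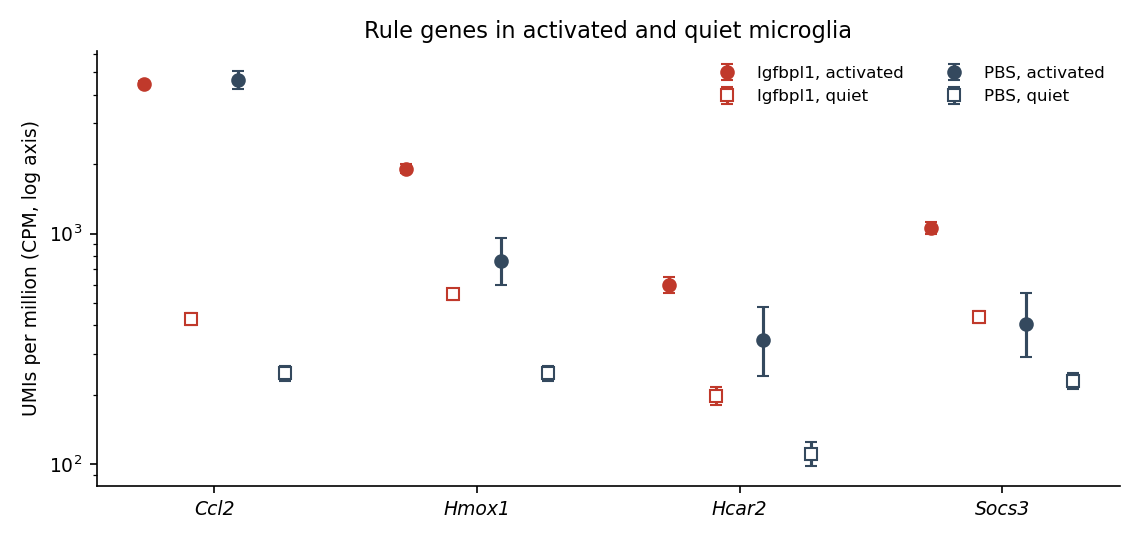
Level of each rule gene (y axis, CPM on a log axis) in activated cells (filled circles) and quiet cells (open squares), Igfbpl1 library in red and PBS library in dark blue, with 95% Poisson intervals of the counts. Ccl2 stands at 4439.8 CPM in activated cells of the Igfbpl1 library and at 4646 CPM in those of the PBS library, while Hmox1 stands at 1908 and 761 CPM in the same order.

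Members differed in which gene carried the score. In the Igfbpl1 library Ccl2 had the most UMIs of the 4 genes in 236 members, Hmox1 in 125, Socs3 in 41 and Hcar2 in 15, with 14 ties. Ccl2 led in 26 PBS members, Hmox1 in 4 and Hcar2 in 1. All 4 genes were detected in 98 members of the Igfbpl1 library (22.7%) and in 2 of the PBS library. A single rule gene was detected in 36 members of the Igfbpl1 library and in 7 of the PBS library. Rule UMIs per member had a median of 15 in the Igfbpl1 library (5 to 87) and of 18 in the PBS library (7 to 39). Under 10 rule UMIs decided membership for 97 members of the Igfbpl1 library and 2 of the PBS library. Across all microglia the pairs of rule genes were weakly related, with Spearman coefficients per 10000 UMIs from -0.00325 to 0.146 in the 2 libraries. Within members Ccl2 and Hmox1 had a coefficient of -0.451 in the Igfbpl1 library and -0.637 in the PBS library, which the threshold on their sum favours.

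The gate genes differed by less than 1.5-fold between activated and quiet cells. P2ry12 had 653 CPM in activated and 826 CPM in quiet cells of the Igfbpl1 library, and 1147 CPM in activated and 1519 CPM in quiet cells of the PBS library. Tmem119, a microglial membrane protein, had 378 CPM in activated and 415 CPM in quiet cells of the Igfbpl1 library, and 692 CPM in activated and 743 CPM in quiet cells of the PBS library. Olfml3, a secreted protein of microglia, had 885 CPM in activated and 866 CPM in quiet cells of the Igfbpl1 library, and 979 CPM in activated and 849.9 CPM in quiet cells of the PBS library.

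Beyond the rule genes, activated cells differed from quiet cells of the same library mostly by modest folds. Genes at a mean of at least 50 CPM and 20 UMIs were measured, and ratios had 10 CPM added on the log2 scale. In the Igfbpl1 library 4 of 3176 measured genes were at least 2-fold higher in activated than in quiet cells (0.126%) and 3 at least 2-fold lower (0.0945%). The higher genes were Ccl7, Saa3, Cxcl2 and Gm17268, and the lower ones H2-Aa, H2-Eb1 and Ifitm2. Saa3, an acute-phase protein, had 147 CPM in activated and 38.3 CPM in quiet cells, from 12 activated and 14 quiet cells. Ifitm2, an interferon-induced membrane protein, had 46.1 CPM in activated and 104 CPM in quiet cells. At 1.5-fold the counts were 24 higher (0.756%) and 20 lower (0.63%). In the PBS library, with 31 activated cells, 79 of 3446 genes were at least 2-fold higher (2.29%) and 94 lower (2.73%), and 390 were at least 1.5-fold higher (11.3%) and 382 lower (11.1%). Past 2-fold in the same direction in both libraries was 1 gene of 2909, Gm17268, on the higher side (0.0344%) and 0 on the lower side (0.0%). At 1.5-fold 6 genes were higher (0.206%) and 5 lower (0.172%) in both. Since the rule cut the cells within this contrast, the counts describe the class and are not evidence for it. The median log2 ratio over all measured genes was -0.04 in the Igfbpl1 library and -0.00 in the PBS library.

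Heat shock genes, which encode chaperones that refold damaged proteins, were higher as a group in activated cells. Their median log2 ratio of activated over quiet cells was 0.45 in the Igfbpl1 library, with 15 of 15 measured genes above 0 and 3 past 1.5-fold. For PBS cells it was 0.77, with 14 of 14 above 0 and 11 past 1.5-fold. Among all measured genes 0.756% were higher past 1.5-fold in the Igfbpl1 library and 11.3% in the PBS library. Hspa1a, an inducible Hsp70, had 7759 CPM in activated and 5143 CPM in quiet cells of the Igfbpl1 library (1.51-fold, 1.47 to 1.55), and 5951 CPM in activated and 3716 CPM in quiet cells of the PBS library (1.60-fold, 1.47 to 1.74). Reads of Hspa1a may be split with its near-identical copy Hspa1b, so its level is uncertain. Dnajb1, an Hsp40 partner of Hsp70, had 1617 CPM in activated and 993 CPM in quiet cells of the Igfbpl1 library (1.63-fold), and 583 CPM in activated and 328 CPM in quiet cells of the PBS library (1.78-fold). It was detected in 68.0% of activated and 56.1% of quiet cells of the Igfbpl1 library. The PBS shares were alike, 38.7% of activated and 38.8% of quiet cells. Hspe1, the mitochondrial Hsp10, had 1948 CPM in activated and 1322 CPM in quiet cells of the Igfbpl1 library, and 899.6 CPM in activated and 484 CPM in quiet cells of the PBS library. Hsp90aa1, the inducible Hsp90, was 1.44-fold higher in activated cells of the Igfbpl1 library and 1.55-fold higher in those of the PBS library. Hspb1, a small heat shock protein, had 767 CPM in activated and 468 CPM in quiet cells of the Igfbpl1 library. It had 208 CPM in activated and 92.0 CPM in quiet cells of the PBS library, the first from 21 UMIs. Only 9.68% of the 31 activated cells and 7.34% of the quiet cells of the PBS library held any Hspb1 UMI.

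The heat shock genes were the list furthest above 0 in both libraries, and their shared control through heat shock elements is textbook knowledge, so the promoters of Hspa1a and Hspb1, which hold such elements, are shown. Each is the 250 bases before the RefSeq transcription start on GRCm38.p6, 5′ to 3′ on the gene's strand, with matches to the heat shock element GAANNTTC, which reads the same on both strands, in capitals.
Hspa1a (chr17:34972157-34972406, minus strand): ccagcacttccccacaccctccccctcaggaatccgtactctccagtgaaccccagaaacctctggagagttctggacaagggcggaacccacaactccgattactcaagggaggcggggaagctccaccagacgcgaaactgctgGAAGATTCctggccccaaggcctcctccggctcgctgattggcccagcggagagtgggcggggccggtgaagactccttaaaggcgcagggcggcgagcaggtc
Hspb1 (chr5:135887669-135887918, plus strand): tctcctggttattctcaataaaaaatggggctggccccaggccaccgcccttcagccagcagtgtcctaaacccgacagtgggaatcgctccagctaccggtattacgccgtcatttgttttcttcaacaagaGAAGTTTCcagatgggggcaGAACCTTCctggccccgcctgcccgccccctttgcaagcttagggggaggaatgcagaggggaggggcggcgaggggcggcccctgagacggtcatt
The Hspa1a window holds 1 match, beginning 104 bases before the start, and the Hspb1 window 2, beginning 117 and 97 bases before it. Of 32544 mouse promoter windows of this length, 2187 (6.72%) hold at least 1 match. Of the other heat shock genes searched, Hspe1 has 1 match in its window, and Dnajb1 and Hsph1 have 0 matches in their 2 windows each. A match is a description of the letters and was not tested as a site in these cells.

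Heat shock transcripts were also present outside the microglia. The list summed to 29424 CPM in activated and 20568 CPM in quiet cells, 18239 CPM in B cells and 4802 CPM in retinal neurons of the Igfbpl1 library. For PBS cells the sums were 21442 CPM in activated and 12648 CPM in quiet cells, 13828 CPM in B cells and 4424 CPM in retinal neurons. B cells therefore stood near quiet microglia and below activated microglia in both libraries. The part of free RNA in these levels was not tested.

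Immediate early genes, the transcription factors and regulators induced within minutes of a stimulus, were higher in activated cells by smaller folds. Their median log2 ratio was 0.29 in the Igfbpl1 library, with 18 of 18 above 0 and 0 past 1.5-fold, and 0.59 in the PBS library, with 15 of 18 above 0 and 9 past 1.5-fold. The share of all measured genes higher past 1.5-fold was 0.756% in the Igfbpl1 library and 11.3% in the PBS library. Atf3, a stress-induced transcription factor, had 3724 CPM in activated and 2714 CPM in quiet cells of the Igfbpl1 library (1.37-fold), and 1749.8 CPM in activated and 1052 CPM in quiet cells of the PBS library (1.66-fold). Fos, a subunit of the AP-1 factor, had 4097 CPM in activated and 3297 CPM in quiet cells of the Igfbpl1 library, and 2462 CPM in activated and 1799 CPM in quiet cells of the PBS library. Jun, its partner, was 1.05-fold (1.01 to 1.09) higher in activated cells of the Igfbpl1 library and 1.56-fold (1.42 to 1.71) higher in those of the PBS library. The list summed to 9239 CPM in B cells of the Igfbpl1 library, where activated microglia held 28337 CPM and quiet microglia 23362 CPM. It summed to 6943 CPM in B cells of the PBS library, where activated microglia held 24200 CPM and quiet microglia 16592 CPM.

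Chemokine genes outside the rule had a median log2 ratio of 0.29 in the Igfbpl1 library, with 8 of 11 above 0 and 2 past 1.5-fold. The PBS library had a median of 0.45, with 8 of 9 above 0 and 3 past 1.5-fold. All measured genes together had 0.756% higher past 1.5-fold in the Igfbpl1 library and 11.3% in the PBS library. Ccl7, a monocyte chemokine encoded beside Ccl2 (chr11:82045712-82047525, plus strand), had 137 CPM in activated and 24.0 CPM in quiet cells of the Igfbpl1 library (5.71-fold, 4.18 to 7.89). Its UMIs lay in 37 activated and 20 quiet cells, and B cells of that library held 130 CPM of Ccl7, from 24 UMIs. Ccl7 had 39.5 CPM in activated and 8.78 CPM in quiet cells of the PBS library (4.50-fold, 1.13 to 13.2), from 4 UMIs in activated cells, below the minimum level for a measured gene. Ccl12, another chemokine of the same locus (chr11:82101845-82103400, plus strand), had 3606 CPM in activated and 2670.1 CPM in quiet cells of the Igfbpl1 library (1.35-fold), and 1552 CPM in activated and 987 CPM in quiet cells of the PBS library (1.57-fold). Ccl4, a chemokine that attracts leukocytes, had 10015 CPM in activated and 7086 CPM in quiet cells of the Igfbpl1 library (1.41-fold), and 7454 CPM in activated and 4058 CPM in quiet cells of the PBS library (1.84-fold). Ccl3, a related chemokine, was 1.43-fold higher in activated cells of the Igfbpl1 library and 1.44-fold higher in those of the PBS library. Cxcl2, a neutrophil chemokine, had 171 CPM in activated and 71.3 CPM in quiet cells of the Igfbpl1 library, but 765 CPM in its B cells. Cxcl2 was at 0 in activated cells and at 13.4 CPM in quiet cells of the PBS library.

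Regulators of inflammatory signals were given in 2 lists. The anti-inflammatory and feedback list had a median log2 ratio of 0.09 in both libraries. The list of NF-kB feedback genes and targets had a median log2 ratio of 0.08 in the Igfbpl1 library, with 1 of 16 past 1.5-fold, and of 0.45 in the PBS library, with 7 of 16 past 1.5-fold. Over all measured genes 0.756% were past 1.5-fold on the higher side in the Igfbpl1 library and 11.3% in the PBS library. Ier3, an early response gene that limits cell death, had 776 CPM in activated and 506 CPM in quiet cells of the Igfbpl1 library (1.53-fold, 1.40 to 1.68), and 1107 CPM in activated and 448 CPM in quiet cells of the PBS library (2.47-fold, 2.02 to 3.0). Nfkbiz, a nuclear IkB protein, was 1.07-fold (0.944 to 1.21) higher in activated cells of the Igfbpl1 library and 1.73-fold (1.27 to 2.31) higher in those of the PBS library. Zfp36, which promotes decay of cytokine mRNAs, was 1.39-fold higher in activated cells of the Igfbpl1 library and 1.64-fold higher in those of the PBS library. The difference between the libraries was not tested.

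Inflammatory cytokines and mediators had a median log2 ratio of 0.16 in the Igfbpl1 library, with 10 of 12 above 0, and of 0.28 in the PBS library, with 8 of 10 above 0. Il1b, the inflammasome-processed cytokine interleukin-1 beta, had 841 CPM in activated and 473 CPM in quiet cells of the Igfbpl1 library (1.78-fold, 1.62 to 1.94). In the PBS library it had 59.3 CPM in activated and 99.3 CPM in quiet cells (0.597-fold, 0.217 to 1.32), the first from 6 UMIs. Tnf, the cytokine tumour necrosis factor, had 191 CPM in activated and 179.7 CPM in quiet cells of the Igfbpl1 library (1.06-fold, 0.890 to 1.26), and 316 CPM in activated and 218 CPM in quiet cells of the PBS library (1.45-fold, 0.983 to 2.07). Both Tnf intervals include 1.

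Fth1, the ferritin heavy chain, had 8947 CPM in activated and 7197 CPM in quiet cells of the Igfbpl1 library (1.24-fold), and 4557 CPM in activated and 4505 CPM in quiet cells of the PBS library (1.01-fold, 0.920 to 1.11). Ftl1, the ferritin light chain, was 1.19-fold higher in activated cells of the Igfbpl1 library and 1.40-fold higher in those of the PBS library. The wider list of oxidative stress and iron genes had a median log2 ratio of 0.17 in the Igfbpl1 library and 0.12 in the PBS library. Higher past 1.5-fold were 0 of 12 and 2 of 13 genes in the same order, beside 0.756% and 11.3% of all measured genes.

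Homeostatic genes outside the gate stayed near their quiet level. Their median log2 ratio was -0.04 in the Igfbpl1 library, with 0 of 30 past 1.5-fold, and -0.13 in the PBS library, with 1 of 30 higher and 2 lower past 1.5-fold. Of all measured genes, 0.756% were higher and 0.63% lower past 1.5-fold in the Igfbpl1 library, and 11.3% and 11.1% in the PBS library. Cx3cr1 had 2162 CPM in activated and 2231 CPM in quiet cells of the Igfbpl1 library (0.969-fold, 0.921 to 1.02), and 2847 CPM in activated and 3125 CPM in quiet cells of the PBS library (0.911-fold, 0.807 to 1.02). Trem2, a lipid-sensing receptor of disease-associated microglia, had 1933 CPM in activated and 1962 CPM in quiet cells of the Igfbpl1 library, and 2659 CPM in activated and 2395 CPM in quiet cells of the PBS library. The disease-associated list had a median of 0.08 in the Igfbpl1 library and -0.04 in the PBS library, and 0 genes past 1.5-fold in either. C1qa, a complement subunit, and Apoe, a lipid carrier, were 1.07-fold and 1.18-fold higher in activated cells of the Igfbpl1 library. Among PBS cells the ratio was 0.962 for C1qa and 1.12 for Apoe.

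Oxidative phosphorylation genes had a median log2 ratio of -0.05 in the Igfbpl1 library, with 0 of 16 past 1.5-fold, and of -0.40 in the PBS library, with 4 of 16 lower past 1.5-fold. Among all measured genes 0.63% were lower past 1.5-fold in the Igfbpl1 library and 11.1% in the PBS library. Igf1r, which encodes the IGF1 receptor, had 55.2 CPM in activated and 80.7 CPM in quiet cells of the Igfbpl1 library (0.684-fold, 0.498 to 0.926), and 69.2 CPM in activated and 82.9 CPM in quiet cells of the PBS library (0.835-fold, 0.332 to 1.75). MHC class II genes, which present antigen, had a median of -0.73 in the Igfbpl1 library, with 4 of 6 lower past 1.5-fold, and of 0.06 in the PBS library, with 2 of 3 above 0. The median cell of the Igfbpl1 library held 7.81 class II UMIs per 10000 when activated and 6.76 when quiet, against maxima of 165 in activated and 406 in quiet cells. H2-Aa had 100.3 CPM in activated and 261 CPM in quiet cells of that library, and H2-Eb1 146 CPM in activated and 319 CPM in quiet cells. Without the called doublets, 26 of which were quiet cells of the Igfbpl1 library, the class II median was -0.14, and 3 genes were past 2-fold higher and 0 lower.

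**Figure D3:**
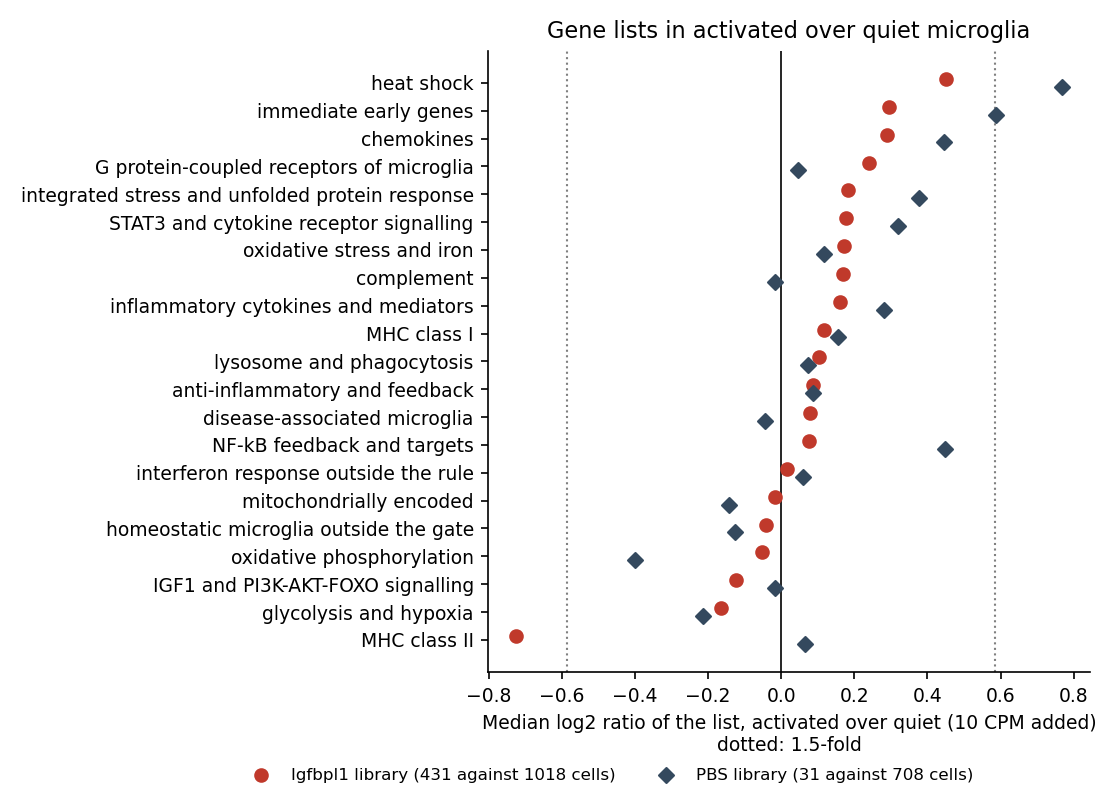
Median log2 ratio of activated over quiet cells (x axis, 10 CPM added) for each gene list (rows), Igfbpl1 library as red circles and PBS library as dark blue diamonds, with dotted lines at 1.5-fold. Heat shock genes lie furthest right in both libraries, at 0.45 in the Igfbpl1 library and 0.77 in the PBS library, and homeostatic genes lie near 0.

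The same groups of genes followed the score below the threshold as well. In the Igfbpl1 library heat shock genes summed to 13895 CPM in microglia with a score of 0, to 21211 CPM between 10 and 20 per 10000 UMIs, to 28752 CPM between 40 and 80 and to 29584 CPM at 160 and over. In the PBS library they summed to 10444 CPM at 0, to 14661 CPM between 10 and 20 and to 20734 CPM between 40 and 80, above which 6 cells were too few to read. Chemokines outside the rule summed to 10373 CPM at a score of 0 and to 26734 CPM at 160 and over in the Igfbpl1 library, and to 6248 CPM at 0 and 13471 CPM between 40 and 80 in the PBS library. Immediate early genes levelled off in the Igfbpl1 library, at 28089.9 CPM between 40 and 80 and 28564 CPM at 160 and over. Homeostatic genes were highest at a score of 0, with 62776 CPM in the Igfbpl1 library and 72556 CPM in the PBS library, and held 52447 and 62484 CPM between 40 and 80 in the same order. Between 20 and 40 the heat shock sum was 23900.4 CPM and the immediate early sum 25108 CPM in the Igfbpl1 library. Cells with a score of 0 were shallower, with a median of 1630 UMIs in the Igfbpl1 library and 3036 in the PBS library, against 2144 and 3310 UMIs between 40 and 80 in the same order.

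**Figure D4:**
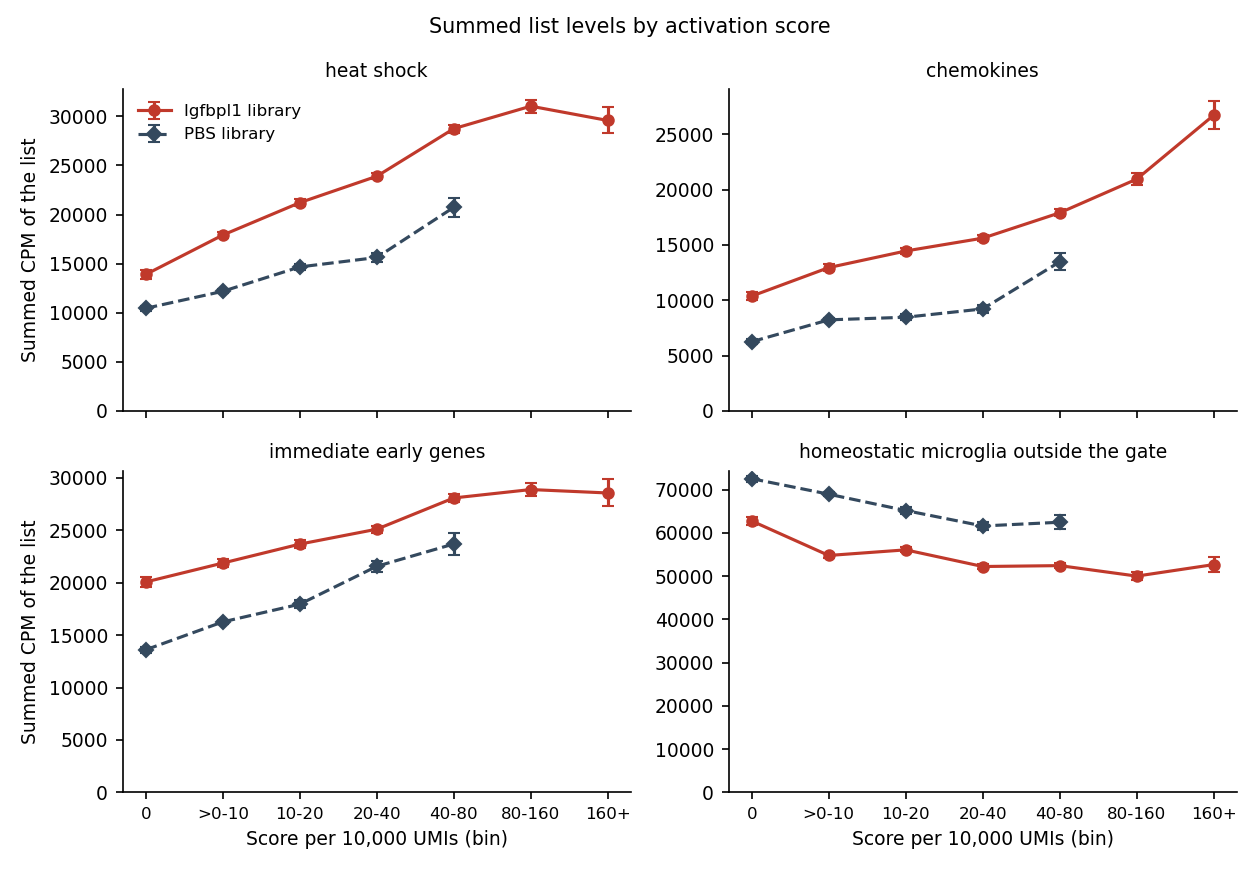
Summed level of 4 gene lists (y axis, CPM from 0) by bin of the activation score (x axis, per 10000 UMIs), Igfbpl1 library as red circles and PBS library as dark blue diamonds, with 95% Poisson intervals and bins of under 20 cells left out. Heat shock genes run from 13895 CPM at a score of 0 to 29584 CPM at 160 and over in the Igfbpl1 library, while homeostatic genes run from 62776 to 52687 CPM.

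Igfbpl1 and PBS activated cells were then set side by side, with the ratio or the levels in quiet cells beside many of the values. In activated cells 118 of 3280 measured genes were at least 2-fold higher in the Igfbpl1 library (3.6%) and 185 lower (5.64%). The median log2 ratio over all measured genes was -0.12, and after division by the median ratio the counts were 160 higher and 101 lower, so the split between directions rests on the scaling. At 1.5-fold 372 genes were higher (11.3%) and 654 lower (19.9%). In quiet cells 32 of 3342 genes were at least 2-fold higher (0.958%) and 5 lower (0.15%), and 108 were at least 1.5-fold higher (3.23%) and 141 lower (4.22%). The PBS library gave 101156 UMIs in activated and 2619004 in quiet cells, so ratios in activated cells carry the wider counting error.

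MHC class II genes had the highest list median, 1.65 in activated and 2.14 in quiet cells on the log2 scale of Igfbpl1 over PBS. Cd74, the class II invariant chain, had 435 CPM in Igfbpl1 and 168 CPM in PBS activated cells (2.59-fold, 1.60 to 4.49), and 663 CPM in Igfbpl1 and 139.7 CPM in PBS quiet cells (4.74-fold). H2-Aa had 100.3 CPM in Igfbpl1 activated cells and 0 UMIs in PBS activated cells, at least 3.38-fold higher against a floor of 3 UMIs over the group. Quiet cells held 261 CPM of H2-Aa in the Igfbpl1 library and 27.5 CPM in the PBS library. In retinal neurons, which should lack class II, Cd74 had 406 CPM in the Igfbpl1 library and 0 in the PBS library. After thinning, Cd74 was detected in 27.8% of activated cells and 13.7% of neurons of the Igfbpl1 library.

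Il1b had 841 CPM in Igfbpl1 and 59.3 CPM in PBS activated cells (14.2-fold, 6.48 to 38.7), and 473 CPM in Igfbpl1 and 99.3 CPM in PBS quiet cells (4.76-fold, 4.16 to 5.47). B cells held 1172 CPM of Il1b in the Igfbpl1 library and 0 in the PBS library. After thinning to 1000 UMIs, Il1b was detected in 26.9% of activated cells, 14.9% of quiet cells, 27.7% of B cells and 4.11% of retinal neurons of the Igfbpl1 library. The part of free RNA in the Il1b level was not tested. Cxcl2 had 171 CPM in Igfbpl1 and 0 in PBS activated cells (at least 5.75-fold higher), with 765 CPM in B cells of the Igfbpl1 library and 0 in those of the PBS library. Ifi27l2a, an interferon-induced mitochondrial protein, had 1028 CPM in Igfbpl1 and 227 CPM in PBS activated cells (4.52-fold, 3.0 to 7.17), beside 2079 CPM in Igfbpl1 and 589 CPM in PBS B cells. Wfdc17, a secreted antiprotease-like protein of macrophages, had 294 CPM in Igfbpl1 and 19.8 CPM in PBS activated cells (14.9-fold, 4.08 to 123, from 2 PBS UMIs), beside 1162 CPM in Igfbpl1 and 101 CPM in PBS B cells. Each of these 4 genes was thus also higher in B cells of the Igfbpl1 library than in those of the PBS library. Quiet cells went the same way. They held 71.3 CPM of Cxcl2 in the Igfbpl1 library and 13.4 CPM in the PBS library. Ifi27l2a had 933 and 230 CPM in quiet cells in the same order, and Wfdc17 221 and 45.8 CPM.

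The chemokine list had a median of 0.75 in activated and 0.80 in quiet cells. It summed to 4679 CPM in B cells of the Igfbpl1 library and to 138 CPM in those of the PBS library. Ccl12 was 2.32-fold (1.98 to 2.74) higher in Igfbpl1 than in PBS activated cells and 2.71-fold higher in quiet cells. Ccl3 was 1.34-fold higher in activated and 1.35-fold higher in quiet cells, and Ccl4 1.34-fold and 1.75-fold in the same order. Ccl12 had 293 CPM in Igfbpl1 and 5.31 CPM in PBS B cells. Ccl3 had 814 CPM in Igfbpl1 and 21.2 CPM in PBS B cells, and Ccl4 1227 and 90.2 CPM in the same order. The part of free RNA in these ratios was not tested. Ccl7 had 137 CPM in Igfbpl1 and 39.5 CPM in PBS activated cells (3.48-fold, 1.33 to 12.9), the second from 4 UMIs, and its log2 ratio was -0.28 after thinning. In B cells Ccl7 had 130 CPM in the Igfbpl1 library and 0 in the PBS library. Ccl2 itself had 4439.8 CPM in Igfbpl1 and 4646 CPM in PBS activated cells (0.956-fold, 0.869 to 1.05). The threshold sets a minimum for the sum of the 4 rule genes, so this level depends in part on the rule.

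Heat shock genes had a median of 0.63 in activated and 0.90 in quiet cells. Dnajb1 was 2.77-fold (2.14 to 3.66) higher in Igfbpl1 than in PBS activated cells and 3.03-fold higher in quiet cells. Hspb1 was 3.70-fold (2.40 to 6.01) higher in activated and 5.08-fold higher in quiet cells, the first against PBS UMIs found in 9.68% of 31 cells. Atf3 was 2.13-fold higher in activated and 2.58-fold higher in quiet cells, and Fos 1.66-fold and 1.83-fold in the same order. Each of these 4 genes had the larger ratio in quiet cells, a difference that was not tested. Dnajb1 had 863 CPM in Igfbpl1 and 456 CPM in PBS B cells, and Atf3 1004 and 47.8 CPM in the same order. The part of free RNA in these ratios was not tested.

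Some early and feedback genes had ratios below 1 in activated cells and above 1 in quiet cells. Jun had 3861 CPM in Igfbpl1 and 4933 CPM in PBS activated cells (0.783-fold, 0.713 to 0.861), and 3681 CPM in Igfbpl1 and 3164 CPM in PBS quiet cells (1.16-fold, 1.13 to 1.20). Ier3 had 776 CPM in Igfbpl1 and 1107 CPM in PBS activated cells (0.701-fold, 0.575 to 0.863), against a ratio of 1.13 (1.04 to 1.23) in quiet cells. Tnf was lower in both, with a ratio of 0.602 (0.413 to 0.906) in activated and 0.824 (0.726 to 0.935) in quiet cells. The NF-kB list had a median of -0.15 in activated and 0.20 in quiet cells.

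Homeostatic genes were lower in the Igfbpl1 library in both classes, with a median of -0.38 in activated cells, where 10 of 30 were lower past 1.5-fold, and of -0.48 in quiet cells, where 8 of 30 were. Over all measured genes 19.9% were lower past 1.5-fold in activated and 4.22% in quiet cells. Cx3cr1 had 2162 CPM in Igfbpl1 and 2847 CPM in PBS activated cells (0.759-fold, 0.671 to 0.862), and a ratio of 0.714 in quiet cells. Trem2 had a ratio of 0.727 in activated and 0.819 in quiet cells. Cst3, the protease inhibitor cystatin C and the highest-level gene of its list, had 26168 CPM in Igfbpl1 and 33048 CPM in PBS activated cells. Hpgd, the enzyme that inactivates prostaglandins, had 407 CPM in Igfbpl1 and 1196 CPM in PBS activated cells (0.340-fold, 0.277 to 0.421), and a ratio of 0.577 in quiet cells.

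Fth1 had 8947 CPM in Igfbpl1 and 4557 CPM in PBS activated cells (1.96-fold, 1.79 to 2.16), and a ratio of 1.60 in quiet cells, beside 11453 CPM in Igfbpl1 and 3153 CPM in PBS B cells. Apoe had 10355 CPM in Igfbpl1 and 5655 CPM in PBS activated cells (1.83-fold), beside 15785 CPM in Igfbpl1 and 313 CPM in PBS B cells. In quiet cells Apoe had 8801 CPM in the Igfbpl1 library and 5058 CPM in the PBS library. Oxidative phosphorylation genes had a median of 0.67 in activated cells, with 9 of 16 higher past 1.5-fold, and of 0.34 in quiet cells, with 2 of 16. The share of all measured genes higher past 1.5-fold was 11.3% in activated and 3.23% in quiet cells. Igf1r had 55.2 CPM in Igfbpl1 and 69.2 CPM in PBS activated cells (0.797-fold, 0.362 to 2.08), an interval that spans both directions. Xist had 669 CPM in Igfbpl1 and 89.0 CPM in PBS activated cells, the 9 PBS UMIs lying in 1 cell.

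**Figure D5:**
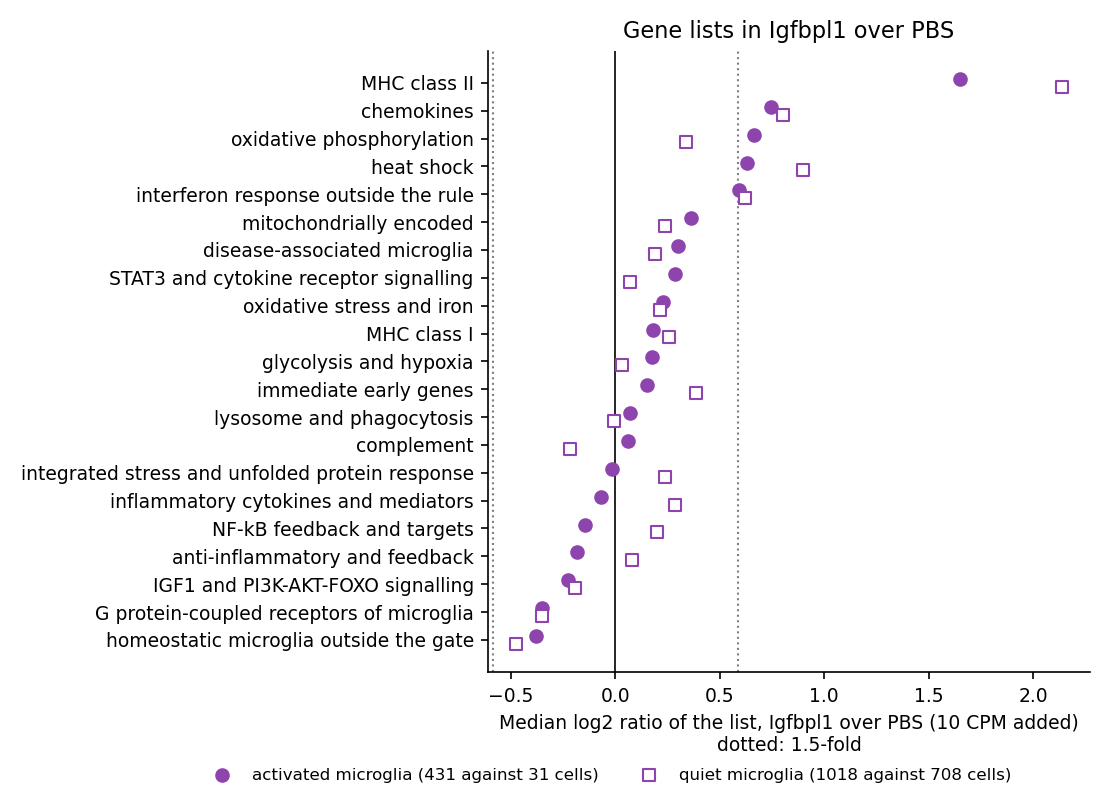
Median log2 ratio of Igfbpl1 over PBS (x axis, 10 CPM added) for each gene list (rows) in activated cells (filled circles, 431 against 31 cells) and quiet cells (open squares, 1018 against 708 cells), with dotted lines at 1.5-fold. In both classes MHC class II lies furthest right, at 1.65 in activated and 2.14 in quiet cells, and homeostatic genes lie furthest left, at -0.38 and -0.48 in the same order.

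Within the Igfbpl1 library the 236 members led by Ccl2 were compared with the 125 led by Hmox1, a division made after the data were seen and given without counts of genes. Heat shock genes had a median log2 ratio of -0.30 in Ccl2-led over Hmox1-led members, with 1 of 15 above 0. The median over all 3125 measured genes was 0.03. Hspa1a had 6797 CPM in Ccl2-led and 8575 CPM in Hmox1-led members. Fth1 had 8007 CPM in Ccl2-led and 10591 CPM in Hmox1-led members, and Apoe 8402 CPM in Ccl2-led and 13424 CPM in Hmox1-led members. Ccl7 had 196 CPM in Ccl2-led and 36.3 CPM in Hmox1-led members (5.41-fold, 2.83 to 11.6), the second from 10 UMIs in 5 cells. Ccl12 had 3804 CPM in Ccl2-led and 3334 CPM in Hmox1-led members. The median depth was 2223.5 UMIs in Ccl2-led and 1985 in Hmox1-led members.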

How the data were processed

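The authors deposited UMI counts per gene and cell barcode for both libraries, not normalised. Cell Ranger 3.1 and mm10 are named in the submitters' processing notes, and the sources used here do not give the filter on cells. The highest mitochondrial share of a cell was 14.6% in the Igfbpl1 library and 14.5% in the PBS library.

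Cells were classed by the rule in the report, and UMIs were summed per class and library with Python 3.11.15, numpy 2.4.6, pandas 2.3.3 and scipy 1.17.1. Exact 95% intervals are Clopper-Pearson for shares, Poisson for levels and conditional binomial for folds, and a count of 0 allows up to 3 counts. With 1 library per group nothing was tested. The summing and counting steps were tested on simulated data.

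The members, the lists and the markers were chosen with earlier results of these data known. Named were the rule and gate genes, the 12 genes per direction with the largest Igfbpl1 over PBS ratios of at least 2-fold and 50 UMIs in activated cells, up to 4 members of each list and a fixed set that includes Il1b, Tnf, Atf3, Apoe and Igf1r. The rule for activated over quiet cells named 0 genes. The report gives values for part of these. Gm17268, Ifitm2 and the 12 next genes per direction in that ranking, Hspb1 among them, were chosen after their values were seen. Doublets were called with Scrublet in scanpy 1.11.5 and kept. B cells lay outside the microglia gate and had at least 3 UMIs of B cell markers, among them Cd79a, Cd79b and Ms4a1. Retinal neurons were added after the data were seen. Gene positions are from GENCODE M21 and promoters from RefSeq, which gave no window for Ccl2, Hmox1 and Hcar2.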

Additional observations from a re-analysis of the deposited data

Results flagged for a closer look

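Il1b pointed in opposite directions in the libraries. Its log2 ratio of activated over quiet cells was 0.82 in the Igfbpl1 library and -0.66 in the PBS library. The PBS value rests on 6 UMIs in 3 of 31 activated cells and its interval includes no difference. The difference between the libraries was not tested.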

How the results depend on the processing

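No paired analysis was possible because each group is 1 library. The share of microglia called activated was 27.5% in the Igfbpl1 library and 4.03% in the PBS library, and it moved with the rule. In the Igfbpl1 library it was 36.4% at a threshold of 30 per 10000 UMIs, 15.5% at 60, 30.4% with no interferon limit and 34.7% after thinning. With Ccl2, Hmox1, Hcar2 or Socs3 left out of the sum it was 11.9%, 17.1%, 24.2% and 21.3% in that order. In the PBS library it was 7.41% at 30, 1.95% at 60, 0.390% without Ccl2, 7.24% after thinning and 0.532% in Xist-only cells. The Igfbpl1 share was the higher one under each of these alternatives. Against 7 genes past 2-fold in activated over quiet cells of the Igfbpl1 library there were 14 without Ccl2, 3 without Hmox1, 4 without Socs3, 11 after thinning, 3 without called doublets, 24 in Xist-only cells, 33 in Y-only cells, 27 against quiet cells under 10 per 10000, 19 at a minimum of 20 CPM and 4 with 50 CPM added. Against 173 in the PBS library there were 49 at a threshold of 30, 404 after thinning, 581 at a minimum of 20 CPM and 33 with 50 CPM added. Against 303 for Igfbpl1 over PBS in activated cells there were 130 at a threshold of 30, 650 at a minimum of 20 CPM and 70 with 50 CPM added. Against 1 gene past 2-fold in both libraries there were 2 with a gate of 5 UMIs and 30 per 10000, 3 after thinning, 4 against quiet cells under 10 per 10000 and 4 at a minimum of 20 CPM. Of 1071 list medians recomputed, 23 came inside 1.5-fold, 4 passed it in their own direction and 1044 were counted as the same. A median reported inside 1.5-fold counted as the same unless it passed 1.5-fold in its own direction. Changes of sign among such medians were thus not counted. The heat shock median stayed between 0.31 and 0.77 in the Igfbpl1 library and between 0.30 and 0.88 in the PBS library. For named genes 1192 values were recomputed, and a reversal was counted only where the reported ratio was at least 2-fold. By that count 4 reversed. Activated over quiet in the Igfbpl1 library was -0.0438 for Cxcl2 at a threshold of 60, -0.0222 for Saa3 without Socs3 and 0.46 for Ifitm2 after thinning. Igfbpl1 over PBS in activated cells was -0.28 for Ccl7 after thinning. Changes of sign among smaller ratios were not counted. The cause was not tested. Classes of under 20 PBS cells, at a threshold of 60, without Ccl2, in Xist-only and in Y-only cells, gave no ratios.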
